A study of Mus musculus with 10 samples.

Results

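The matrilins are a family of 4 secreted proteins of the extracellular matrix, encoded in the mouse by *Matn1*, *Matn2*, *Matn3* and *Matn4*. The members were taken by gene symbol, with no threshold on measured values but with earlier results of these data known, and they make up 4 of the 23080 genes in the count table. All 4 of the 4 were listed and passed the filter on low counts. Their transcripts were measured by bulk RNA-seq, which pools the RNA of all cells of a sample, in the anterior fontanelle (AF) of mouse embryos at E18.5. The AF is the fibrous, unossified region between the frontal and parietal bones, and the dissection took bone along with its connective tissue but neither skin nor brain. The study asked how *Fgfr2*, which encodes an FGF receptor, acts in AF closure.

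There were 10 libraries in 2 groups of 5. By their labels, 5 libraries came from wild-type AF (WT-labelled) and 5 from AF of genotype *Wnt1-Cre; Fgfr2fl/fl*, titled NCC Fgfr2 KO (KO-labelled). *Wnt1-Cre* directs recombination of the floxed *Fgfr2* allele to the neural crest and its descendants, which include the mesenchyme of the AF, so cells of another origin in the same sample keep an intact allele. No other allele, and no treatment, is named for either group. The study's figure legend describes 5 animals per genotype as littermate pairs, without naming the libraries that make up each pair.

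Matrilins join other matrix molecules into networks. Their subunits are built from von Willebrand factor A domains, which bind collagens and proteoglycans, EGF-like domains, and a coiled coil through which subunits assemble into oligomers, and the number of the first 2 kinds of domain differs between members. *Matn1* and *Matn3* are best known from cartilage, where their products bind collagen fibrils, aggrecan and COMP, whereas *Matn2* and *Matn4* are expressed more widely, also in loose and dense connective tissue.

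Totals ran from 20774667 to 28515434 counts per library, or 15317756 to 20480184 without the 6 ribosomal RNA genes, which took 18.7% to 33.6%. Levels are given in CPM, a gene's counts relative to the total of its library, with TMM factors between 0.900 and 1.13 applied to the totals to make libraries comparable. Within a group, libraries correlated across genes with Pearson's r between 0.955 and 0.980. The targeted gene went against its label. *Fgfr2* stood at 199.5 ± 21.7 CPM in WT-labelled and 318.5 ± 32.8 CPM in KO-labelled libraries (SD over 5 libraries each). The log2 fold change was 0.67 (SE 0.09, adjusted p = 0.0487, edgeR's quasi-likelihood test). That call did not hold throughout, since no gene higher in KO-labelled libraries passed with library size only or with replicate number as a covariate. The same was true without WT-labelled replicate 1, 3, 4 or 5, and without KO-labelled replicate 1, 3, 4 or 5. The table gives a single value for the whole gene, in which recombined and intact alleles are not separated, so directions here are given by label. Some libraries stood apart. The summed CPM of 10 neuron markers was 585 in KO-labelled replicate 2 and 74.1 to 240.1 in the others, and that of skeletal muscle markers was 817 in WT-labelled replicate 2 and 801 in KO-labelled replicate 1 against 25.0 to 166 elsewhere. Markers of bone and of dense connective tissue were present in both groups, such as *Ibsp* at 1704 and 1137 CPM and *Tnmd* at 44.1 and 65.8 CPM in WT-labelled and KO-labelled libraries, while the epidermal keratin *Krt14* was at 0.248 and 0.280 CPM.

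On GRCm38, *Matn1* lies on chromosome 4 from 130944385 to 130955475 (plus strand, 8 exon blocks, 2001 exon bases). *Matn2* lies on chromosome 15 from 34306677 to 34436273 (plus strand, 20 exon blocks, 6097 exon bases in coding transcripts). *Matn3* lies on chromosome 12 from 8947929 to 8972028 (plus strand, 8 exon blocks, 3014 exon bases). *Matn4* lies on chromosome 2 from 164389393 to 164405160 (minus strand, 12 exon blocks, 2367 exon bases in coding transcripts). *Matn1* and *Matn3* have 1 annotated transcript each, *Matn2* has 6 and *Matn4* has 5. *Matn4* shares 149 exon bases with *Rbpjl* on the opposite strand, which held 159 counts over the 10 libraries together. *Matn2* shares 70 exon bases with *9430069I07Rik* on the opposite strand, which is not listed in the table.

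Promoter windows of 300 bases, 250 before and 50 after a start site, were matched in RefSeq (GRCm38.p6) for 3 of the 4 members. They are shown because *Matn1* and *Matn3* were both highest in KO-labelled replicates 1 and 2, whereas *Matn4* was highest in KO-labelled replicates 3 and 4. Capitals mark matches on either strand to CANNTG, the E-box that basic helix-loop-helix factors bind, and to GGGCGG, the GC box of SP-family factors. The windows are *Matn1* at chr4:130944135-130944434 (plus strand), *Matn3* at chr12:8947679-8947978 (plus strand) and the more distal of 2 *Matn4* windows at chr2:164405111-164405410 (minus strand).
Matn1: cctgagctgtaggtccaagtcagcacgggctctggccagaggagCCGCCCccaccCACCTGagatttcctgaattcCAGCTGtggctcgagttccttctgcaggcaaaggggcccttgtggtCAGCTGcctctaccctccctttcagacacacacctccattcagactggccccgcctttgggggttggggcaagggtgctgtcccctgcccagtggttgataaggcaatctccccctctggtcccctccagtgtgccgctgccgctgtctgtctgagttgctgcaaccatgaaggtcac
Matn3: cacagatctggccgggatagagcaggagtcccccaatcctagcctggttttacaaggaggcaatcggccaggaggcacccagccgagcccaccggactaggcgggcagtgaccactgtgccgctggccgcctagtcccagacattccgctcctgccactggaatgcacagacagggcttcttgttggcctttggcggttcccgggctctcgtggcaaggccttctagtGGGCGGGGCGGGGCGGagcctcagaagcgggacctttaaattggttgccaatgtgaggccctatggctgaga
Matn4: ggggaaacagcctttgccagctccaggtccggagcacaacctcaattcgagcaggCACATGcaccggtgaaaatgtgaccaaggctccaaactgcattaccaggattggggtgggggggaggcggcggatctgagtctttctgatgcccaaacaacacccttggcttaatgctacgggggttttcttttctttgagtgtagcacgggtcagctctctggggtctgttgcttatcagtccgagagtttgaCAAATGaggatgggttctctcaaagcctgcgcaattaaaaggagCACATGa
The *Matn1* window held 3 E-boxes (at −195, −174 and −128 from the start site) and 1 GC box (at −206). The *Matn3* window held no E-box and 3 GC boxes that overlap each other in a run just before the start site (at −22, −17 and −12). The *Matn4* window held 3 E-boxes (at −195, −1 and 44) and no GC box, and the other *Matn4* window held 1 of each. The SOX core ACAAT was in none of the 4 windows on either strand. Of 32851 windows of this length, 72.3% held CANNTG, 35.7% held GGGCGG and 31% held ACAAT. GC content was 61.3% for *Matn1*, 62.7% for *Matn3*, and 52.7% and 64% for the printed and the other *Matn4* window, against a median of 52.7% over all windows. The printed *Matn4* window belongs to the start of 1 of its 4 coding transcripts. The others start at 164404612 to 164404614, which neither *Matn4* window reaches. These matches describe the letters in the windows only.

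The excised tissue, bone included, expressed mainly *Matn4* and *Matn2*. Per kilobase of exon in coding transcripts, the WT-labelled level was 35.6 ± 4.71 CPM for *Matn4*, 18.2 ± 2.63 for *Matn2*, 0.397 ± 0.245 for *Matn1* and 0.152 ± 0.073 for *Matn3* (SD, n = 5). In KO-labelled libraries the same levels per kilobase were 55.6 ± 9.97, 19.5 ± 2.92, 0.919 ± 0.960 and 0.313 ± 0.188 CPM. *Matn4* was thus above *Matn2* in 10 of 10 libraries. This order depends on which *Matn4* exons are counted, since a retained-intron transcript raises its exon bases to 5174. With the exons of all annotated transcripts, the WT-labelled level per kilobase was 16.3 ± 2.15 CPM for *Matn4* and 17.7 ± 2.56 CPM for *Matn2*, within each other's spread, and *Matn4* was the higher in 6 of 10 libraries. The cartilage members *Matn1* and *Matn3* were low under either length, and *Matn1* was above *Matn3* per kilobase in every library except KO-labelled replicate 3. Among the 16267 genes tested, *Matn4* stood at percentile 95.7 of CPM per kilobase and *Matn2* at 88.2, but *Matn1* at 16.9 and *Matn3* at 5.55. These percentiles took the mean of all 10 libraries and coding-transcript exons only, so the order of *Matn4* and *Matn2* in them carries the same limit.

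**Figure D1:**
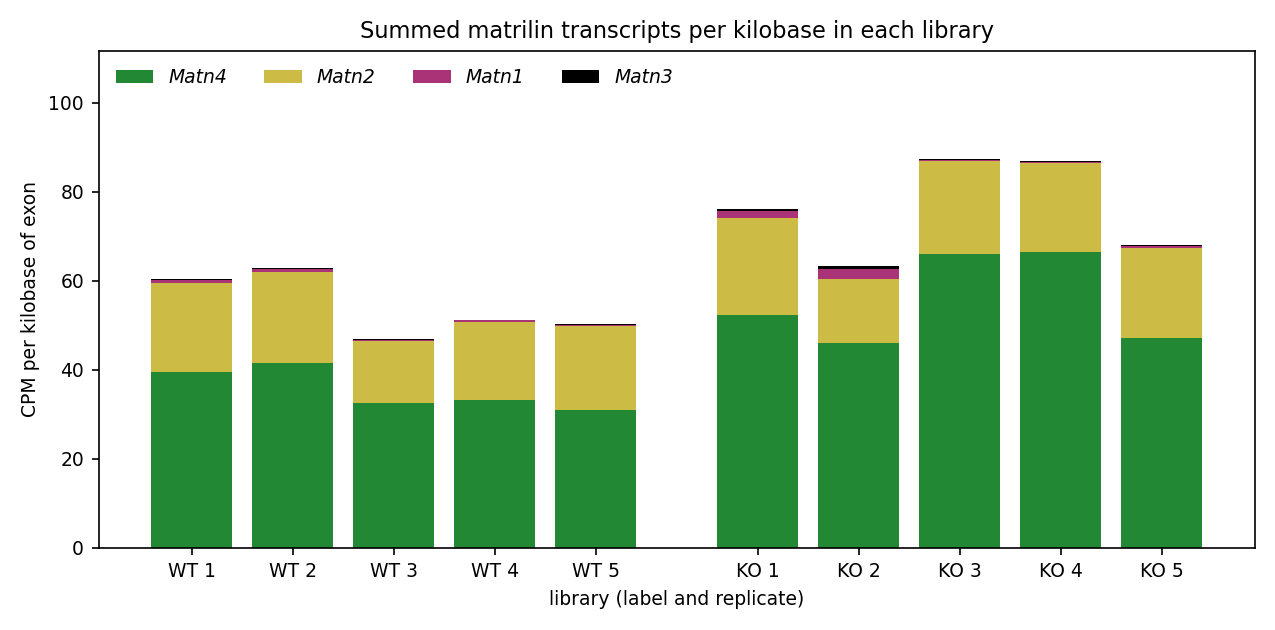
Summed CPM per kilobase of coding-transcript exon (vertical axis) of the 4 matrilins in each library (horizontal axis), stacked by member. The sum ran from 46.8 to 62.9 in WT-labelled and from 63.3 to 87.2 in KO-labelled libraries, and *Matn1* and *Matn3* are thin bands at the top of each bar.

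Summed per kilobase, the family held 60.5, 62.9, 46.8, 51.2 and 50.2 CPM in WT-labelled replicates 1 to 5 and 76.1, 63.3, 87.2, 86.8 and 68.0 CPM in KO-labelled replicates 1 to 5. The groups did not overlap with these lengths, but WT-labelled replicate 2 and KO-labelled replicate 2 were next to each other, and with the exons of all annotated transcripts the groups overlapped (28.8 to 39.8 and 37.9 to 50.9 CPM). *Matn4* made up 65.6 ± 2.88% of the family sum in WT-labelled libraries (61.6% to 69.7%) and 72.6 ± 3.57% in KO-labelled libraries (68.7% to 76.5%). *Matn2* made up 33.5 ± 2.97% (29.7% to 37.9%) and 25.6 ± 3.32% (22.7% to 29.9%). With coding-transcript exons, *Matn1* reached 3.45% in KO-labelled replicate 2 and was at 2.26% or less elsewhere, and *Matn3* was under 1% in all 10 libraries. With the exons of all annotated transcripts, the WT-labelled shares became 47.3 ± 3.18% for *Matn4* and 51.2 ± 3.36% for *Matn2*, and the KO-labelled shares 55.5 ± 4.44% and 41.6 ± 4.27%, so which member led the sum in WT-labelled libraries turned with the length. In bulk samples, more cells of a type and more RNA per cell cannot be told apart.

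No matrilin passed an adjusted p of 0.05 in edgeR's quasi-likelihood test between the groups (0 of 4), where 0.0184% of all genes tested did (3 genes). At an unadjusted p under 0.05, *Matn3* and *Matn4* were higher in KO-labelled libraries and none of the 4 was lower, while 3.68% of all genes tested were higher and 3.82% lower at that threshold. All KO-labelled libraries lay above all WT-labelled libraries for 1 of the 4, *Matn4*, and for 0.781% of all genes tested. DESeq2's Wald test called 1 of the 4, *Matn4*, among 97 genes. The log2 fold change of all 4 was above 0, and the median over all genes tested was 0.000728.

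**Figure D2:**
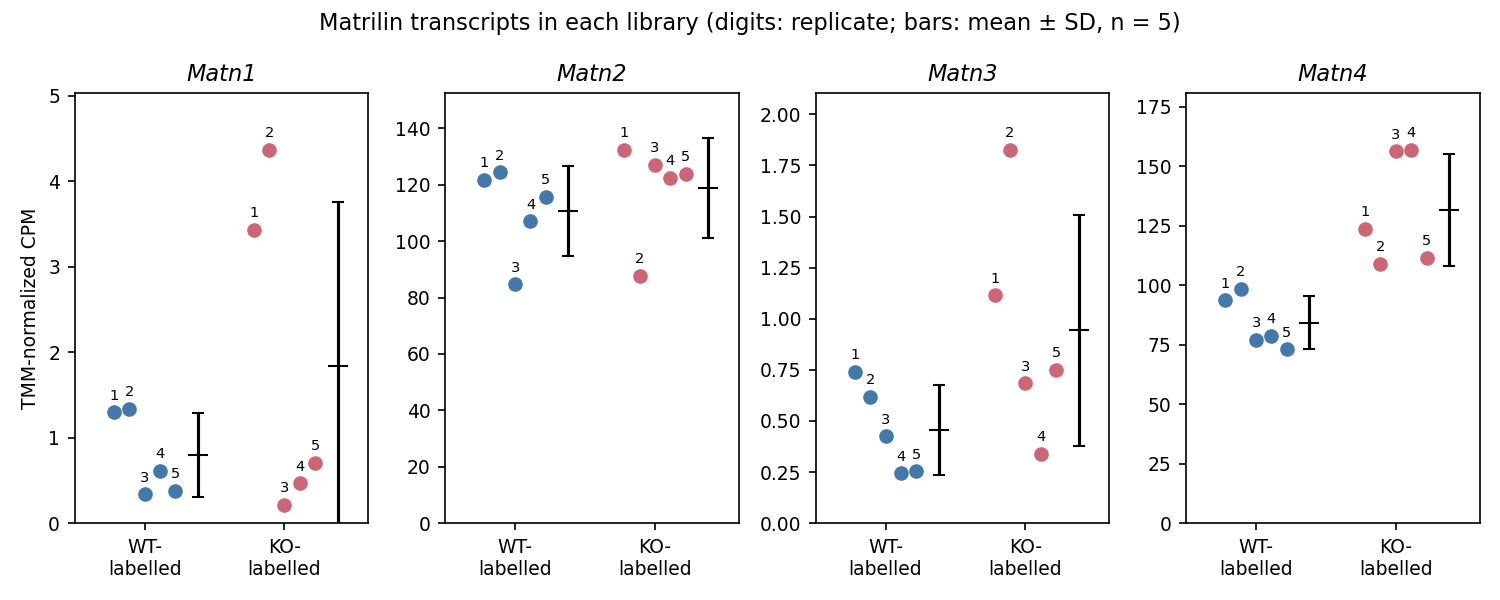
TMM-normalized CPM (vertical axis, from 0 in each panel) of the 4 matrilins in the 5 WT-labelled and 5 KO-labelled libraries, with the mean ± SD (n = 5) beside the points and digits for the replicate number. The KO-labelled points lie above all WT-labelled points for *Matn4* only, and the lower SD bar of *Matn1* in KO-labelled libraries is cut off at 0.

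*Matn4* encodes the member with the widest tissue distribution. It was at 93.7, 98.5, 77.2, 78.8 and 73.2 CPM in WT-labelled replicates 1 to 5 and at 124, 109, 156, 157 and 112 CPM in KO-labelled replicates 1 to 5. The groups did not overlap, with the highest WT-labelled value at 98.5 CPM and the lowest KO-labelled value at 109 CPM, and KO-labelled replicates 3 and 4 stood well above the other KO-labelled libraries. Between 1731 and 3690 counts per library stood behind these values. The log2 fold change was 0.64 (SE 0.12, 95% interval 0.40 to 0.89, adjusted p = 0.184, edgeR's quasi-likelihood test), and *Matn4* ranked at 21 of the 16267 genes by p. The exact permutation test over all 252 regroupings of the libraries (two-sided) gave p = 0.00794, the smallest it can give. Unlike edgeR, DESeq2's Wald test passed *Matn4* at an adjusted p of 0.000482 with a log2 fold change of 0.65. Leaving out each library in turn moved the log2 fold change between 0.58 and 0.71, and edgeR's adjusted p between 0.155 and 0.485.

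*Matn2* encodes a matrilin of fibrous connective tissue, skin and peripheral nerve. It was at 122, 124, 84.7, 107 and 116 CPM in WT-labelled replicates 1 to 5 and at 132, 87.7, 127, 122 and 124 CPM in KO-labelled replicates 1 to 5. The groups overlapped over nearly their whole range, with WT-labelled replicate 3 and KO-labelled replicate 2 as the low library of each. Means were 110.7 ± 16.0 and 118.8 ± 17.8 CPM (SD, n = 5 each), on 1993 to 3629 counts per library. The log2 fold change was 0.10 (SE 0.12, 95% interval −0.14 to 0.34, adjusted p = 0.887, edgeR's quasi-likelihood test), and the exact permutation test (two-sided) gave p = 0.468. The interval leaves out a change of the size fitted for *Matn4*, but the 2 intervals do not serve as a test between the genes. Without KO-labelled replicate 2, which also held the most neuron marker RNA, the log2 fold change was 0.20 (adjusted p = 0.765, edgeR).

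Within each library, the ratio of *Matn4* to *Matn2* does not depend on scaling between libraries. The log2 ratio of their CPM was −0.39 ± 0.19 in WT-labelled libraries (−0.66 to −0.13) and 0.14 ± 0.25 in KO-labelled libraries (−0.15 to 0.36; SD, n = 5 each). The groups overlapped slightly at their nearest ends. The difference of 0.53 had p = 0.0159 in a two-sided exact permutation test, and 0.0952 after Benjamini-Hochberg adjustment over the 6 ratios between members, so it did not pass with adjustment. It stayed between 0.47 and 0.61 with each library left out. For the other 5 ratios the unadjusted p of the exact permutation test was 0.143 to 0.968, the lowest for *Matn3* over *Matn2* (difference 0.84).

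**Figure D3:**
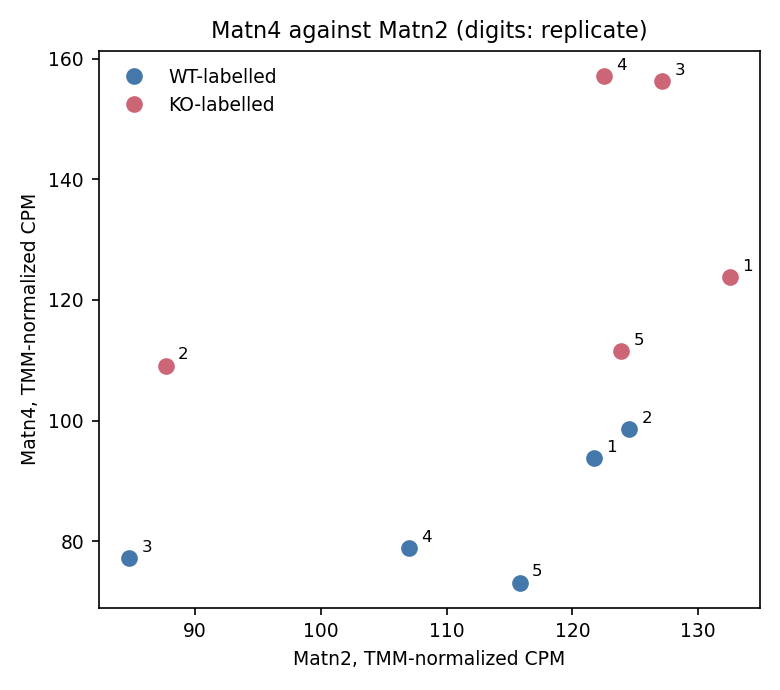
TMM-normalized CPM of *Matn4* (vertical axis) against *Matn2* (horizontal axis) in each library, colored by label with digits for the replicate number; neither axis starts at 0. KO-labelled replicates 3 and 4 combine the highest *Matn4* values (156 and 157) with *Matn2* values (127 and 122) inside the range of the other libraries, and KO-labelled replicate 2 and WT-labelled replicate 3 are at the low end of *Matn2*.

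*Matn1* encodes the cartilage matrix protein, the first matrilin described. Its counts were 35, 39, 8, 15 and 9 in WT-labelled replicates 1 to 5 and 74, 110, 5, 11 and 16 in KO-labelled replicates 1 to 5. In CPM these are 1.30, 1.34, 0.340, 0.613 and 0.380, then 3.44, 4.37, 0.214, 0.468 and 0.707. In both groups replicates 1 and 2 were high and the other 3 low, the highest library was 20.4-fold above the lowest, and both of these were KO-labelled. By the numbers in the submitters' library names, replicates 1 and 2 of both groups came before all other libraries. What that order stands for is not given, and its part in these values was not tested. Means were 0.794 ± 0.490 and 1.84 ± 1.92 CPM (SD, n = 5 each). The log2 fold change of 1.19 had an SE of 0.74 (adjusted p = 0.734, edgeR's quasi-likelihood test), and the exact permutation test (two-sided) gave p = 0.524. Without KO-labelled replicate 2 the log2 fold change was 0.58, and without KO-labelled replicate 1 it was 0.86, whereas it was highest, at 1.49, without KO-labelled replicate 3 (unadjusted p = 0.0459, adjusted p = 0.612, edgeR). With limma voom and quality weights, which give less weight to libraries that deviate, it was 0.27. The SD of log2 CPM within groups was 1.45, at percentile 97.1 of 1322 genes of like level (within 0.5 log2 units). The same percentile was 93.9 of 853 genes for *Matn2* and 93.5 of 936 genes for *Matn4*, so these 3 members varied between libraries of a group more than most genes of their level.

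*Matn3* encodes a matrilin of growth and articular cartilage. Its counts were 20, 18, 10, 6 and 6 in WT-labelled replicates 1 to 5 and 24, 46, 16, 8 and 17 in KO-labelled replicates 1 to 5. In CPM these are 0.741, 0.617, 0.425, 0.245 and 0.254, then 1.11, 1.83, 0.685, 0.341 and 0.751. KO-labelled replicates 1 and 2 were the highest of all, and the remaining KO-labelled libraries fell among or next to the WT-labelled ones. Means were 0.457 ± 0.220 and 0.944 ± 0.566 CPM (SD, n = 5 each). The log2 fold change was 1.03 (SE 0.45, unadjusted p = 0.0436, adjusted p = 0.656, edgeR's quasi-likelihood test), and the exact permutation test (two-sided) gave p = 0.103. Without KO-labelled replicate 2 the log2 fold change was 0.64, with an unadjusted edgeR p of 0.158. The unadjusted p was also above 0.05, at 0.0731 to 0.0952, without KO-labelled replicate 1 or WT-labelled replicate 3, 4 or 5, and was lowest, at 0.0130, without KO-labelled replicate 4. The SD of log2 CPM within groups was 0.79, at percentile 76.0 of 1337 genes of like level.

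*Matn1* and *Matn3* were high in many of the same libraries. Over the 10 libraries, Pearson's r of their log2 CPM was 0.740 (permutation p = 0.0146, adjusted over the 6 pairs of members 0.0877) and Spearman's rho was 0.636 (permutation p = 0.0546, adjusted 0.164). After the group means were subtracted r was 0.760. Without KO-labelled replicates 1 and 2, the libraries farthest from the median of *Matn1*, r was 0.318, so the size of the pooled r rests on those 2 libraries together. Without KO-labelled replicate 1 alone r was 0.694, and without KO-labelled replicate 2 alone it was 0.584. In the WT-labelled group too, replicates 1 and 2 were the highest in both genes, though 5 libraries are too few for an r of their own. *Matn2* and *Matn4* gave r = 0.474 (permutation p = 0.163, adjusted 0.489) and rho = 0.661 (permutation p = 0.0425, adjusted 0.164), with r = 0.534 after subtraction of group means and 0.686 without WT-labelled replicate 3 and KO-labelled replicate 2. For the remaining 4 pairs, r was between −0.060 and 0.394 (adjusted permutation p between 0.518 and 0.918), and between −0.29 and −0.12 after subtraction of group means. These pooled values hide different orders in the groups. *Matn4* was highest in replicates 1 and 2 among WT-labelled libraries, as were *Matn1* and *Matn3*, but among KO-labelled libraries *Matn4* was lowest in replicate 2, where *Matn1* and *Matn3* were highest. This difference between the groups was not tested.

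The libraries high in *Matn1* and *Matn3* were compared with the marker sums. KO-labelled replicate 2, highest in both genes, had the highest neuron sum of 585 CPM and the lowest sums of osteoblast (90370 CPM), tendon and ligament (5966 CPM) and cartilage markers (2181 CPM). Most of the cartilage sum is *Col11a1* and *Col11a2* (means of 985 and 1188 CPM in WT-labelled libraries), and in the same library *Col2a1* (153 CPM), *Col9a1* (30.2 CPM), *Col9a3* (17.8 CPM) and *Comp* (3.06 CPM) were at their highest of all 10. KO-labelled replicate 1, next highest in both, had a skeletal muscle sum of 801 CPM and the highest Schwann cell sum, 97.6 CPM. WT-labelled replicates 2 and 1, next in *Matn1* and nearly level with each other, differed in these sums. Replicate 2 had a skeletal muscle sum of 817 CPM, and replicate 1 had one of 26.3 CPM, a neuron sum of 122 CPM and the highest osteoblast and cartilage sums of its group. Across the 10 libraries, *Matn1* had r = −0.82 with the osteoblast sum and 0.64 with the neuron sum, while *Matn2* had r = 0.82 and *Matn4* r = 0.65 with the tendon and ligament sum. With the cartilage sum *Matn1* had r = −0.62 and *Matn3* r = −0.39. Of the 20 cartilage genes tested, 12 had r above 0 with *Matn1* and 8 below, from −0.60 for *Col11a2* to 0.84 for *Comp*. These correlations are descriptions, given without a test, and all sums share each library's scaling. The part of any of these cells in the matrilin values was not tested.

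**Figure D4:**
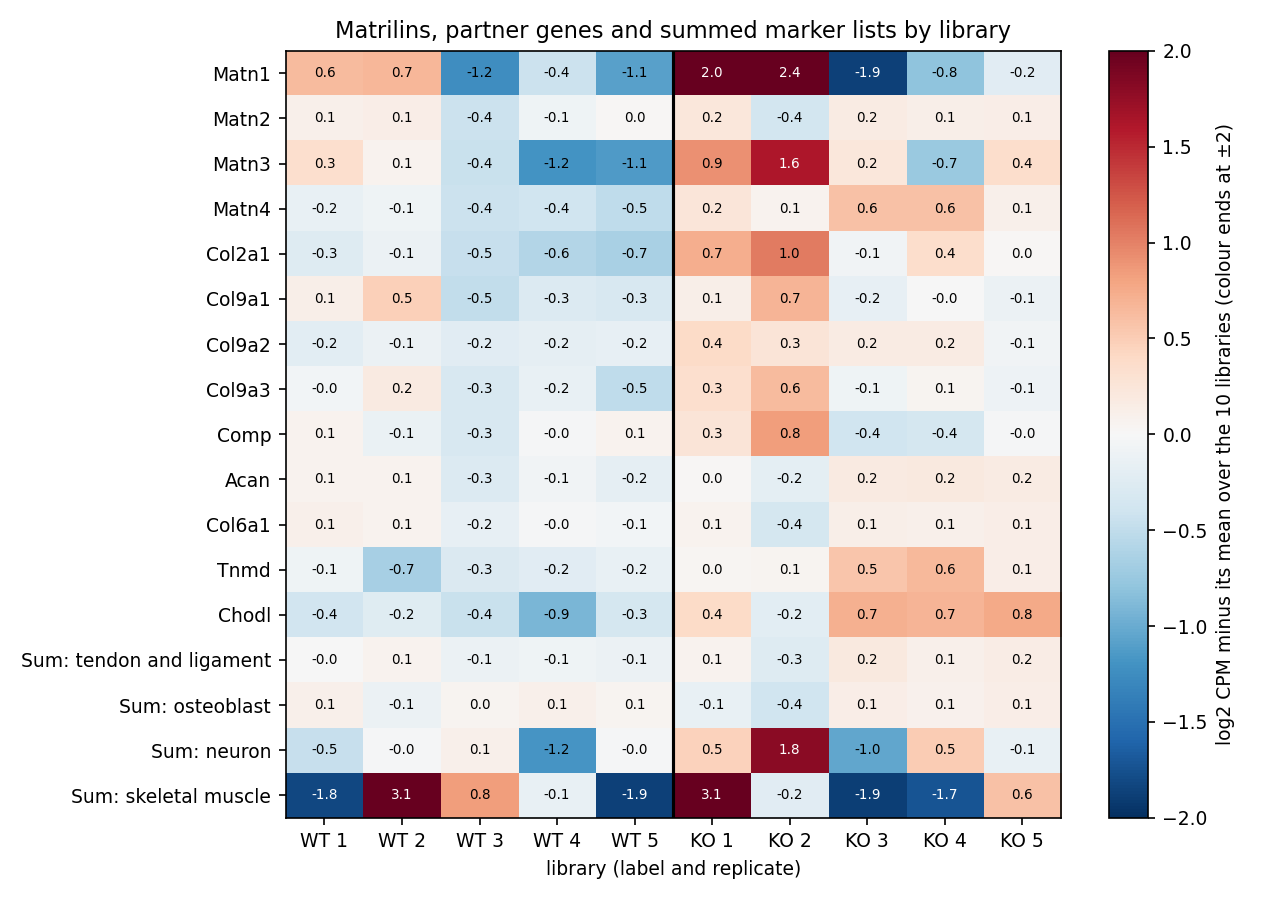
Deviation of log2 CPM from its mean over the 10 libraries (color and printed value, color ending at ±2) for the matrilins, partner genes, *Tnmd*, *Chodl* and summed marker lists (rows) in each library (columns, WT-labelled left of the line and KO-labelled right). *Matn1*, *Matn3*, *Col2a1* and *Col9a3* share their highest columns in KO-labelled replicates 1 and 2, which *Acan* and *Col6a1* do not, and *Matn4* shares its highest columns with *Tnmd* in KO-labelled replicates 3 and 4.

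For each member, the 5 genes with the most similar log2 CPM over the 10 libraries were taken from 11013 genes with a mean of at least 5 CPM. The nearest to *Matn4* were *Kcns1* (r = 0.957), *Tcea3*, *Wscd2*, *Sorl1* and *Sipa1l1* (r = 0.922), and their r after subtraction of group means was 0.758 to 0.923. The nearest to *Matn2* were *Setd2* (r = 0.955), *Cped1*, *Cdkn1c*, *Ect2* and *Ccdc8* (r = 0.920). The nearest to *Matn1* were *Cadm3* (r = 0.916), *Eno2*, *Ndrg4*, *Slc2a3* and *Osbpl1a* (r = 0.881). The nearest to *Matn3* were *Magee1* (r = 0.961), *Adam11*, *Rbfox2*, *Adgrl1* and *Kif1b* (r = 0.936). The 4 groups of neighbors had no gene in common, and the highest of so many correlations over 10 libraries is large by construction.

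Of the 16 genes for matrix molecules that matrilins bind, none passed edgeR's test at an adjusted p of 0.05, 3 were higher at an unadjusted p under 0.05 and none was lower (3.68% and 3.82% of all genes tested). Their log2 fold changes were above 0 for 13 and below 0 for 3, with a median of 0.17, while 50.3% of all genes tested were above 0. With 1 library left out, 3 to 5 were higher at an unadjusted p under 0.05 and the median ran from 0.11 to 0.22. The 3 that were higher with all 10 libraries were *Col2a1*, the fibrillar collagen of cartilage, *Col9a2*, a chain of the collagen IX on its fibrils, and *Fbn2*, a microfibril protein. *Col2a1* was at 61.9, 68.5, 54.0, 49.3 and 47.3 CPM in WT-labelled replicates 1 to 5 and at 123, 153, 70.7, 94.8 and 75.6 CPM in KO-labelled replicates 1 to 5. The groups did not overlap, and KO-labelled replicates 1 and 2 were again the highest. All KO-labelled libraries lay above all WT-labelled libraries for 0.781% of all genes tested. Its log2 fold change was 0.88 (SE 0.20, adjusted p = 0.302, edgeR). *Col9a2* was at 25.6 ± 0.775 and 33.1 ± 3.79 CPM, also without overlap (log2 fold change 0.37, SE 0.07, adjusted p = 0.187, edgeR), and *Fbn2* at 276.7 ± 38.4 and 381 ± 82.0 CPM with overlap (0.46, SE 0.14, adjusted p = 0.454).

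The partners differed widely in level. *Col1a1*, the main bone and tendon collagen, was at 66250 and 64070 CPM in WT-labelled and KO-labelled libraries, *Fn1* (fibronectin) at 2849 and 2988, and *Col6a3*, of the collagen VI microfibrils that matrilins link to, at 1867 and 1718. *Acan*, the large proteoglycan of cartilage, was at 206 and 229 CPM (adjusted p = 0.731, edgeR), while *Comp*, the pentameric partner of *Matn3* in cartilage, was at 1.63 and 1.88 CPM and highest in KO-labelled replicate 2, at 3.06 CPM. *Adamts4* and *Adamts5*, aggrecanases that can cut matrilins, were at 37.4 and 36.3 CPM and at 59.6 and 55.6 CPM, and neither passed at an unadjusted p of 0.05. Of the 5 other genes with von Willebrand factor A domains, 4 were tested. *Coch* (3.71 ± 2.53 and 1.85 ± 0.464 CPM, log2 fold change −1.01, adjusted p = 0.625) and *Vit* (15.8 ± 1.19 and 12.9 ± 2.75 CPM, −0.30, adjusted p = 0.653, edgeR) were lower at an unadjusted p under 0.05, and *Vwa1* and *Vwf* did not pass it. Without WT-labelled replicate 3 or KO-labelled replicate 4, none of the 4 passed it, and without WT-labelled replicate 1 only 1 did. *Vit* also failed it without KO-labelled replicate 1 (unadjusted p = 0.0976, edgeR) and without KO-labelled replicate 2 (unadjusted p = 0.101).

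**Figure D5:**
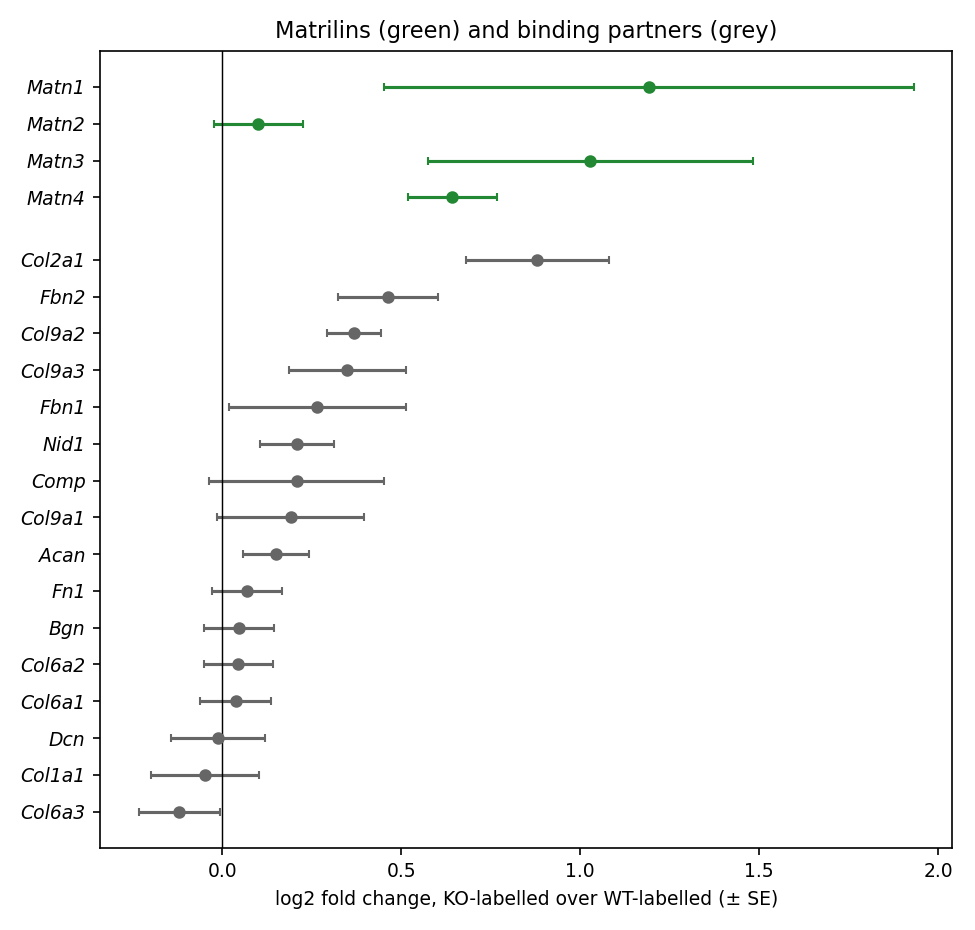
Log2 fold change, KO-labelled over WT-labelled, with its SE (horizontal axis, edgeR) for the 4 matrilins (green) and 16 binding partners (grey). The SE is widest for *Matn1* (0.74) and *Matn3* (0.45), which rest on the fewest counts, and *Col2a1* (0.88) has the largest value among partners.

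None of the cell type lists held a gene that passed at an adjusted p of 0.05 in edgeR's test. The lists were chosen with earlier results of these data known, so the counts are descriptions and no independent support. The counts that follow stand beside 3.68% of all genes tested higher and 3.82% lower at an unadjusted p under 0.05, and 50.3% with a log2 fold change above 0. Of 20 cartilage genes tested, 4 were higher at an unadjusted p under 0.05 (*Col2a1*, *Col9a2*, *Cnmd* and *Ucma*) and 2 lower (*Epyc* and *Col10a1*), with a median log2 fold change of 0.13. *Col2a1* and *Col9a2* are also on the list of binding partners, so they are counted in both. With 1 library left out, 4 to 6 cartilage genes were higher and 1 to 3 lower, and the median ran from 0.063 to 0.21. *Col10a1* was at an unadjusted p of 0.0526 (edgeR) without KO-labelled replicate 1. *Sox9*, the master regulator of chondrocytes, was at 17.9 ± 2.01 and 17.7 ± 0.945 CPM. Of 15 tendon and ligament genes, 6 were higher and 1 lower (*Tnc*) at that threshold, with *Chodl* (log2 fold change 0.95), *Cpxm2* (0.67) and *Tnmd* (0.58) the farthest up and a median of 0.16. Of the 15, 10 had a log2 fold change above 0 and 5 below. With 1 library left out, 4 to 8 were higher and the median ran from 0.12 to 0.28. Without KO-labelled replicate 2, *Chodl* passed at an adjusted p of 0.0090 (log2 fold change 1.09, edgeR). Of 19 osteoblast genes, none was higher, 9 were lower and all 19 had a log2 fold change below 0, with a median of −0.21. With 1 library left out, 9 to 11 were lower and the median ran from −0.25 to −0.13. Up to 2 of the 19 then had a log2 fold change above 0 (2 without KO-labelled replicate 2). Of 10 neuron genes, 3 were higher (*Nefl*, *Nefm* and *Rbfox3*), with a median of 0.87. Without KO-labelled replicate 3, 7 were higher and the median was 1.09. Without KO-labelled replicate 2 that median was 0.23 and *Rbfox3* no longer passed (unadjusted p = 0.0960, edgeR). *Nefl* and *Nefm* were highest in KO-labelled replicate 1, at 54.9 and 45.4 CPM against 2.47 to 9.58 CPM in all other libraries, and without it their log2 fold changes were 0.48 and 0.82 in place of 1.92 and 2.04. The 9 skeletal muscle, 10 Schwann cell, 8 endothelial and 9 meningeal genes tested included none at that threshold, and 1 of 6 epidermal genes, *Epcam*, was lower.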

How the data were processed

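The authors isolated total RNA, prepared stranded libraries and sequenced them as single-end reads. The deposited table holds estimated counts per gene, not scaled between libraries (66.4% whole numbers, lowest gene sum 10). The submitters' processing notes name Partek and mm10, while the aligner, counting tool and strand setting are not given in the sources used here, so genes with an antisense partner are uncertain. Positions come from GENCODE M21 (22274 of 22533 symbols matched by start and end). All columns belonged to a library.

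Counts were rounded, since the design had assumed whole counts, and 16267 genes passed edgeR's filter (6813 left out). Groups were compared by edgeR's quasi-likelihood test (TMM, no covariate, Benjamini-Hochberg over all genes tested, threshold 0.05; R 4.3.3, edgeR 4.0.16, limma 3.58.1, DESeq2 1.42.0), checked on simulated data. Log2 CPM used a prior count of 0.5. Single values used exact permutation tests over 252 regroupings, and correlations 100000 permutations. P-values measure the spread between these libraries. Named genes were the members, *Fgfr2*, overlapping genes, the 5 nearest genes per member, and list genes at an unadjusted p under 0.05 or needed for a level. *Krt14*, *Sox9*, *Acan*, *Comp*, *Col9a3*, *Col6a1*, *Col10a1*, *Col11a1*, *Col11a2*, *Col9a1*, *Vwa1*, *Vwf* and the proteases were added to that rule after their values were seen. The members and lists were chosen with earlier results of these data known. Alternatives were other normalizations, tests and filters, a replicate block, exclusion of ribosomal RNA genes, each library left out and, chosen after seeing the data, another exon length.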

Additional observations from a re-analysis of the deposited data

Results flagged for a closer look

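*Matn2* in KO-labelled replicate 2, at 87.7 CPM, lay far from the other 4 KO-labelled libraries, the nearest of which was at 122 CPM. The gap was 0.777 of the group's range, above Dixon's 95% critical value of 0.71. The other member and group combinations of the 8 checked gave no such sample, and chance flags about 1 in 20 groups. The same library had the highest *Matn1* and *Matn3* and the lowest collagen VI values among the 10 libraries, with *Col6a1* at 898 CPM against 1021 to 1258 CPM elsewhere.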

How the results depend on the processing

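The direction and the side of the threshold of the *Matn1*, *Matn2* and *Matn3* fold changes held in all alternatives that could be fitted. With at least 10 counts required in every library, *Matn1* and *Matn3* had no value. With limma voom and quality weights the log2 fold change of *Matn1* was 0.27 in place of 1.19, and the unadjusted p of *Matn3* was 0.0648 in place of 0.0436. *Matn4* kept its direction in all 18 (log2 fold change 0.58 to 0.71) and passed only in DESeq2's Wald test (0.65, adjusted p = 0.000482), elsewhere having an adjusted p of up to 0.485; the cause was not tested. The number of genes called, 3, was 1 with library size only, 97 with DESeq2's Wald test, 1 with the replicate block and 1 to 6 with a library left out (6 without KO-labelled replicate 2). Under the replicate block, log2 fold changes were 0.78, 0.10, 0.99 and 0.63 for *Matn1* to *Matn4*, the unadjusted p of *Matn3* was 0.0111 and the adjusted p of *Matn4* was 0.463. Deviations of same-numbered libraries correlated at −0.203, 0.139, −0.211, 0.027 and −0.142, and no library correlated best with its own number, so the numbers were not taken as pairs. Leaving out 1 library turned the difference in log2 ratio for *Matn2* over *Matn1* (−1.06 to 0.13), *Matn3* over *Matn1* (−0.13 to 0.67), *Matn4* over *Matn1* (−0.56 to 0.62) and *Matn4* over *Matn3* (−0.68 to 0.041), and r for *Matn1* with *Matn2* (−0.372 to 0.436, and 0.027 with library size only), *Matn1* with *Matn4* (−0.102 to 0.372) and *Matn2* with *Matn3* (−0.228 to 0.499). *Matn3* over *Matn2* ranged from 0.45 to 1.16, with p = 0.0476 in the exact permutation test without KO-labelled replicate 4. The r of *Matn1* and *Matn3* ranged from 0.584 (without KO-labelled replicate 2) to 0.888, and that of *Matn2* and *Matn4* from 0.318 to 0.626. The WT-labelled ratio of *Matn4* to *Matn2* per kilobase, 1.96, was 0.921 with exons of all annotated transcripts, which also moved the WT-labelled share of *Matn2* from 33.5% to 51.2% and of *Matn4* from 65.6% to 47.3%. *Matn1* and *Matn3* rest on 5 to 110 and 6 to 46 counts per library, so their values are less precise than those of *Matn2* and *Matn4*.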
